A study of Rattus norvegicus with 16 samples.

Results

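The genes described here encode proteins of the synaptic vesicle, the release machinery, the active zone and vesicle endocytosis. They are 35 genes on a list of such proteins, with synaptotagmins and Rab GTPases left out, and were found through probes that carry one of these gene names in the array files. The rule uses no measured value. All 35 were on the array, on 43 probes, and 34 of them were among the 22961 genes that could be tested. Sv2c, a member of the SV2 family of vesicle glycoproteins, was well above background in 1 of 16 samples and was not tested.

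The study measured RNA in primary hippocampal neuron cultures prepared from embryos (embryonic day 18 to 19, either sex) of Sprague-Dawley rats, in 4 groups of 4 biological replicates. KD cultures were transduced with a lentivirus (pTRIP vector) that carries a short hairpin RNA against the coding region of PRR7, and OE cultures with a lentivirus (FUGW vector) that carries full-length PRR7. NT cultures received a lentivirus with a nontargeting hairpin, and NO cultures were not transduced. PRR7 is a transmembrane protein of the postsynaptic density, and the title of the study places it in the control of c-Jun in neurons. The labels name no sorting of cells, so neurons and other cells of the cultures were measured together. The overexpression vector differs from the hairpin vector, and no culture with an empty FUGW virus was analysed here. No probe for Prr7 was found on the array, so the group labels could not be checked on the targeted gene.

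RNA was hybridised to 8 Agilent rat arrays with 2 samples of the same group on each, replicates 1 and 3 in Cy3 and replicates 2 and 4 in Cy5. One slide, scanned once, held all KD and NT arrays, and the other held all OE and NO arrays. KD against NT and OE against NO therefore compare cultures on the same slide. In KD against NO, OE against NT and NT against NO, slide and group cannot be told apart. Levels are given as normalized log2 intensity, and each difference is on that log2 scale. Between 47.2% and 69.2% of probes were well above background in a sample, and no tested member probe was saturated. Median net intensity was 73.2 to 150, correlations between samples of a group were 0.978 to 0.998, and the number of arrays limits the precision.

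As background, neurotransmitter is stored in synaptic vesicles, which are tethered and primed at the active zone by large scaffold proteins such as bassoon, piccolo and RIM. Release follows when the vesicle SNARE synaptobrevin zips together with syntaxin and SNAP25 on the plasma membrane, after which NSF and its SNAP adaptors take the complex apart. Vesicle membrane is then recovered by endocytosis, in which amphiphysin, endophilin and dynamin shape and cut the bud and synaptojanin helps to strip its coat. In hippocampal neurons these proteins appear as axons form synapses in culture.

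The probes behind 7 of the members described below are shown because a value rests on hybridisation to the 60 bases of its probe and not to the whole transcript. They are the array's designed sequences, written 5′ to 3′ in lower case, with positions on rn4 from the array annotation. The Syn1 probe lies at chrX:12554612-12554671 on the plus strand, the Nsf probe at chr10:93012573-93020716 on the minus strand and the Rims2 probe at chr7:75270687-75270746 on the plus strand. The Bsn probe lies at chr8:113367762-113367821 on the minus strand, the Doc2a probe at chr1:186030856-186031004 on the plus strand and the Amph probe at chr17:53572134-53572193 on the minus strand. The Synj1 probe shown is the dimmer of 2, described with the probes of the same gene further on, and is not the one whose values are tested as Synj1. It lies at chr11:30923393-30923452 on the minus strand. The spans of the Nsf and Doc2a probes are longer than 60 bases, so these probes cross a gap in the genome alignment.
Syn1: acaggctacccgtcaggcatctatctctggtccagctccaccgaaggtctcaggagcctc
Nsf: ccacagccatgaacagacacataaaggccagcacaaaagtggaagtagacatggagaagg
Rims2: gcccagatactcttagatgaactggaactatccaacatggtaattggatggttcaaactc
Bsn: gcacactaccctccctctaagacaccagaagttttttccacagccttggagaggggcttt
Doc2a: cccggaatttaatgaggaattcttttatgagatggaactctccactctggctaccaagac
Amph: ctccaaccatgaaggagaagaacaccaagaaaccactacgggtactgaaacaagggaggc
Synj1: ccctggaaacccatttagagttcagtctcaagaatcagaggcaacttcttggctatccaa

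In KD against NT cultures, the comparison of the PRR7 hairpin with the nontargeting hairpin on one slide, 4 of 34 members passed an adjusted p of 0.05 in limma, where 21.5% of all genes did. Sv2b, Pclo and Synj1 were higher in KD cultures and Amph was lower. By direction, 10.4% of all genes were called higher and 11% lower. The median difference was 0.03 over the members and -0.03 over all genes. As the cultures hold several cell types, fewer cells of a type and less RNA per cell cannot be told apart in any of these values.

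In OE against NO cultures, which compares PRR7 overexpression with no virus on the other slide, 0 of 34 members passed in limma, and 0.00436% of all genes did. At an unadjusted p under 0.05 there were 2 members and 897 of all genes. The member differences ran from -0.26 to 0.95, with 95% intervals that reached -1.15 at the low end and 1.79 at the high end. The median was 0.00 over the members and -0.01 over all genes.

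Across slides, 4 of 34 members differed between KD and NO cultures (3 higher, 1 lower), beside 10.1% of all genes (4.85% higher, 5.25% lower). Between OE and NT cultures 8 of 34 differed (3 higher, 5 lower), beside 22.8% of all genes (10.4% higher, 12.3% lower). Between NT and NO cultures 10 of 34 differed (4 higher, 6 lower), beside 22.5% of all genes (11.5% higher, 10.9% lower). The difference between the same-slide comparisons, KD minus NT less OE minus NO, was past the threshold for 1 of 34 members, in the positive direction, beside 9.86% of all genes (5.53% positive, 4.32% negative). The shares of members called were 11.8%, 11.8%, 23.5%, 29.4% and 2.94% for KD against NT, KD against NO, OE against NT, NT against NO and the difference of comparisons. The NT samples enter 4 of these comparisons, KD against NT, OE against NT, NT against NO and the difference of comparisons, so a value that is particular to them enters all 4.

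The direction of calls over all genes depended on how arrays were scaled. Of the genes called between KD and NT cultures, 48.6% were higher in KD with Aquantile normalization, 78.3% with the deposited value table and 97.1% with no normalization between arrays. The same shares were 48%, 82.1% and 87% for KD against NO, and 45.7%, 30.7% and 94.1% for OE against NT. They were 51.4%, 47.7% and 4.75% for NT against NO, and 56.1%, 89.8% and 96.5% for the difference of comparisons. Without normalization between arrays the median of all genes moved by 0.66 for KD against NT and by 0.39 for OE against NT. Taken relative to the median of all genes, 27 of 27 calls on members kept their sign under every scaling. Taking out the median removes any shift common to all genes, and the calls were picked by their differences in the same intensities. The count therefore says little about how firm the calls are. Without taking out the median, calls on members were lost under several settings. With no normalization between arrays, Amph was lost in KD against NT, Sv2b, Nsf and Bsn in KD against NO, and Snap25, Rims2, Bsn, Doc2a and Amph in OE against NT. In NT against NO the same setting lost Rims2, Bsn, Pclo, Rph3a, Doc2a and Amph, and it lost Synj1 in the difference of comparisons.

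With the deposited value table, Amph was lost in KD against NT, Nsf in KD against NO, Rims2 and Bsn in OE against NT, and Cplx1, Bsn, Rph3a and Doc2a in NT against NO. With 1 value per array, Pclo was lost in KD against NT, Nsf in KD against NO, and Syn1, Snap25, Nsf, Rims2, Bsn and Doc2a in OE against NT. That setting also lost Syn1, Cplx1, Nsf, Pclo and Rph3a in NT against NO and Synj1 in the difference of comparisons. With only the compared groups in the fit, Pclo was lost in KD against NT, Snap25, Bsn and Doc2a in OE against NT, and Cplx1, Nsf, Pclo and Rph3a in NT against NO. The processed signals lost Pclo in KD against NT and NT against NO, Sv2b in KD against NO, Bsn in OE against NT and Synj1 in the difference. The mean of all probes lost Snap25 in OE against NT and Synj1 in the difference, and an offset of 16 lost Bsn in OE against NT.

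**Figure D1:**
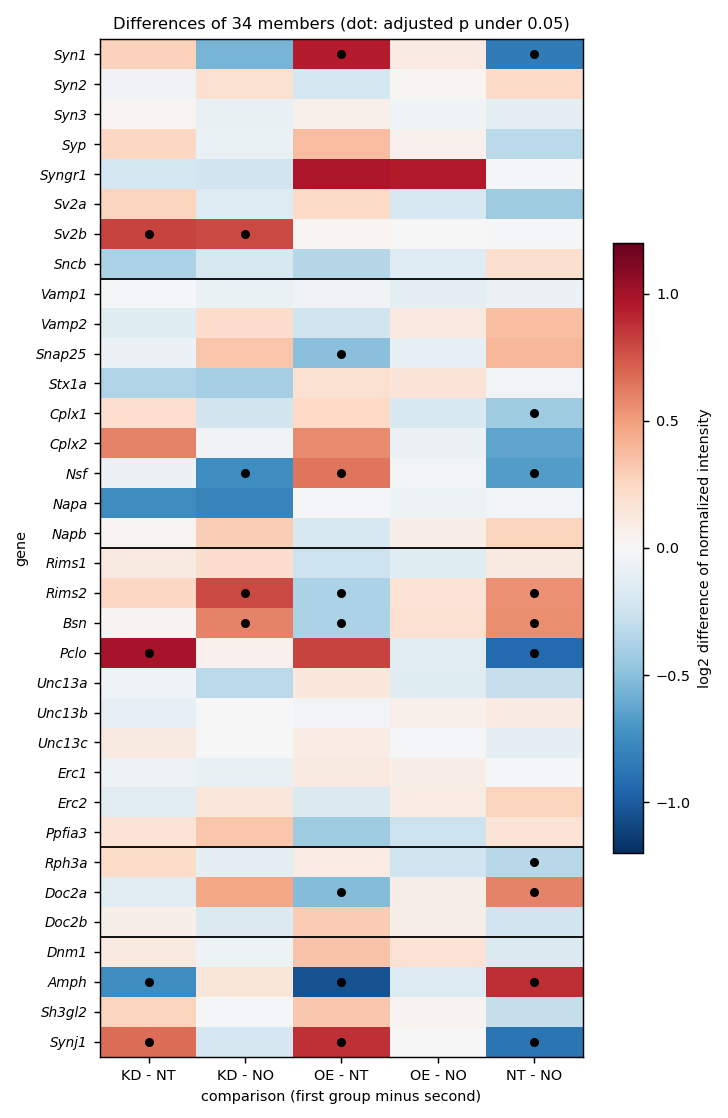
Log2 differences of the 34 tested members (lines, grouped by role) in 5 comparisons (columns: KD−NT, KD−NO, OE−NT, OE−NO, NT−NO). Colour gives the difference, first group minus second, and a dot marks an adjusted p under 0.05 in limma. The OE−NO column holds no dot, and the dots of OE−NT and of NT−NO fall in all 5 roles. KD−NT holds none among the SNARE and C2-domain roles, and KD−NO none among the C2-domain and endocytosis roles.

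Among the vesicle membrane and vesicle-bound proteins, 1 of 8 tested members was called between KD and NT cultures, Sv2b. Sv2b encodes one of the SV2 glycoproteins of the vesicle membrane, which bind synaptotagmin and adjust release. Its levels were 9.67, 9.46, 9.70 and 9.52 in KD cultures, 8.74, 8.59, 8.95 and 8.91 in OE cultures, 8.45, 8.77, 8.92 and 8.94 in NT cultures and 8.65, 8.61, 8.78 and 9.12 in NO cultures. All 4 KD samples lay above every sample of the other 3 groups, which overlapped with one another. Sv2b rose 1.76-fold in KD against NT cultures, a log2 difference of 0.81 (SE 0.18, 95% interval 0.42 to 1.21, limma adjusted p = 0.00516). It was 1.74-fold higher in KD than in NO cultures, 0.80 (SE 0.18, 95% interval 0.40 to 1.19, limma adjusted p = 0.0127), while OE minus NO was 0.00 (limma adjusted p = 1.00). The KD minus NT call was kept under all 28 alternatives run, and the KD minus NO call was lost with the processed signals and with no normalization between arrays. The Sv2b difference for KD minus NT was 1.28 with the deposited value table and 1.32 with no normalization between arrays. The difference of the same-slide comparisons was 0.81 (limma adjusted p = 0.0643) for Sv2b. Its second probe was well above background in 0 samples.

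Syn1 encodes synapsin I, which ties vesicles to one another and to actin in the reserve pool. Its levels were 9.37, 9.45, 9.68 and 9.71 in KD cultures, 10.13, 10.56, 9.89 and 10.27 in OE cultures, 9.55, 9.81, 8.67 and 9.06 in NT cultures and 9.93, 10.07, 10.16 and 10.30 in NO cultures. All 8 samples of the slide with KD and NT lay below all 8 of the slide with OE and NO, and NT replicates 3 and 4 were the lowest. Syn1 was 1.92-fold higher in OE than in NT cultures, a log2 difference of 0.94 (SE 0.21, 95% interval 0.49 to 1.39, limma adjusted p = 0.00515), and fell by 0.84 in NT against NO cultures (limma adjusted p = 0.0101). Within the slides, KD minus NT was 0.28 (limma adjusted p = 0.395) and OE minus NO was 0.10 (limma adjusted p = 1.00). Both cross-slide calls were lost with 1 value per array.

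The other 6 tested vesicle proteins, the synapsins Syn2 and Syn3, synaptophysin (Syp), synaptogyrin 1 (Syngr1), Sv2a and beta-synuclein (Sncb), were called in no comparison. Their KD minus NT differences ran from -0.38 to 0.27 and their OE minus NO differences from -0.19 to 0.95. Sncb had a KD minus NT difference of -0.38 (limma adjusted p = 0.0835), at the low end of that range. Syngr1, described here after its values were seen, encodes a four-span vesicle membrane protein. Its levels were 8.58, 8.59, 8.52 and 8.55 in KD cultures, 10.92, 10.59, 8.64 and 8.80 in OE cultures, 8.80, 8.70, 8.72 and 8.87 in NT cultures and 8.80, 8.86, 8.71 and 8.78 in NO cultures. OE replicates 1 and 2, which share an array, lay above all other samples, and OE replicates 3 and 4 lay in the range of the NO and NT samples or just below it. The OE minus NO difference was 0.95 (SE 0.39, 95% interval 0.11 to 1.79, limma adjusted p = 1.00), with an unadjusted p of 0.0291. All 4 KD samples of Syngr1 lay below every sample of the other groups. KD minus NT was -0.21 (SE 0.39, limma adjusted p = 0.772). The SDs were 0.03 in KD, 1.19 in OE, 0.08 in NT and 0.06 in NO cultures, and the fit shares 1 estimate of the spread over the groups.

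**Figure D2:**
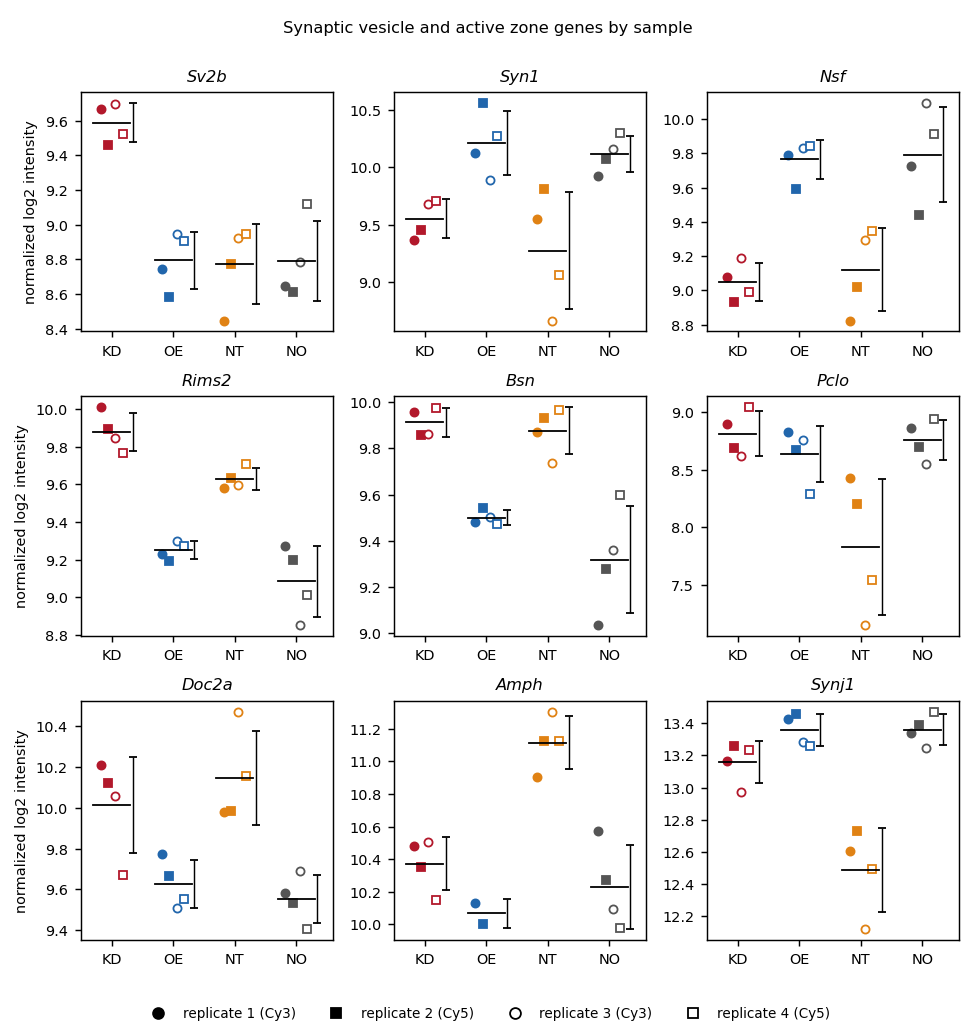
Normalized log2 intensity (vertical axis) of the 9 members with full values, in KD, OE, NT and NO cultures (horizontal axis). Circles are Cy3 samples and squares Cy5 samples, filled for replicates 1 and 2 and open for replicates 3 and 4, lines are means and bars SDs; Sv2b is highest in the 4 KD samples, and NT holds the highest Amph and the lowest Synj1 samples.

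Of the SNAREs, complexins and proteins of SNARE disassembly, 0 of 9 were called in KD against NT in limma, and 2 had an unadjusted p under 0.05. Nsf encodes the ATPase that takes spent SNARE complexes apart. Its levels were 9.08, 8.93, 9.19 and 8.99 in KD cultures, 9.79, 9.59, 9.83 and 9.84 in OE cultures, 8.82, 9.02, 9.29 and 9.35 in NT cultures and 9.73, 9.44, 10.09 and 9.91 in NO cultures. All 8 samples of the KD and NT slide lay below all 8 of the OE and NO slide, and the groups within each slide overlapped. Nsf fell by 0.75 in KD against NO cultures (SE 0.17, limma adjusted p = 0.0116), a level 1.68-fold lower. It was 1.56-fold higher in OE than in NT cultures, 0.64 (SE 0.17, 95% interval 0.28 to 1.01, limma adjusted p = 0.0132), and NT minus NO was -0.67 (limma adjusted p = 0.0107). Within the slides Nsf did not pass, with KD minus NT at -0.07 (limma adjusted p = 0.819) and OE minus NO at -0.03 (limma adjusted p = 1.00). The KD minus NO call was lost with no normalization between arrays, with the deposited value table and with 1 value per array.

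Stx1a, described here after its values were seen, encodes syntaxin 1A, a plasma membrane SNARE. Its levels were 10.29, 10.05, 10.21 and 9.96 in KD cultures, 10.74, 10.71, 10.53 and 10.71 in OE cultures, 10.53, 10.56, 10.45 and 10.41 in NT cultures and 10.51, 10.52, 10.60 and 10.46 in NO cultures. The 4 KD samples lay below all 12 others. KD minus NT was -0.36 (SE 0.12, 95% interval -0.63 to -0.10, limma adjusted p = 0.0509) and KD minus NO was -0.40 (SE 0.12, 95% interval -0.66 to -0.13, limma adjusted p = 0.057), both just short of the threshold. With the replicate number as a block, KD minus NT had a limma adjusted p of 0.0426 and KD minus NO one of 0.0466, both past it. Over all 28 alternatives the difference ran from -0.46 to 0.07 for KD minus NT, with adjusted p from 0.00223 to 0.835 and 11 past the threshold. It ran from -0.46 to -0.23 for KD minus NO, with adjusted p from 0.00213 to 0.531 and 8 past the threshold.

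Snap25, the other plasma membrane SNARE of release, averaged 15.78 ± 0.16 in KD, 15.35 ± 0.20 in OE, 15.85 ± 0.22 in NT and 15.45 ± 0.10 in NO cultures (SD, n = 4 each). All samples of the KD and NT slide lay above all samples of the OE and NO slide. Within the slides Snap25 did not pass, with KD minus NT at -0.07 (limma adjusted p = 0.81) and OE minus NO at -0.10. Across slides it was lower in OE than in NT cultures, a difference of -0.50 (SE 0.16, 95% interval -0.84 to -0.17, limma adjusted p = 0.0315). That call was lost without NT replicate 2, NT replicate 4, OE replicate 2 or OE replicate 4, with adjusted p of 0.0617, 0.0655, 0.0517 and 0.0533. The difference was -0.92 with the deposited value table.

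Cplx1 encodes complexin 1, which clamps partly zipped SNARE complexes, and averaged 8.34 ± 0.09 in KD, 8.38 ± 0.13 in OE, 8.15 ± 0.21 in NT and 8.57 ± 0.13 in NO cultures (SD, n = 4 each). Its NT minus NO difference was -0.42 (SE 0.13, 95% interval -0.70 to -0.14, limma adjusted p = 0.0304), and it was -0.70 with the processed signals. The call was lost without NO replicate 3 (adjusted p = 0.0542) or NO replicate 4 (adjusted p = 0.0544). Cplx2, the second complexin, had a KD minus NT difference of 0.59 (limma adjusted p = 0.136). Napa, described here after its values were seen, encodes alpha-SNAP, the adaptor that brings NSF to the SNARE complex. Its levels were 12.29, 11.93, 10.31 and 12.22 in KD cultures, 12.35, 12.30, 12.55 and 12.46 in OE cultures, 12.04, 12.35, 12.74 and 12.62 in NT cultures and 12.36, 12.54, 12.63 and 12.36 in NO cultures. KD replicate 3 was the lowest sample, well below the other 3 KD samples. All 4 KD samples lay below every OE and NO sample and overlapped with the NT samples. KD minus NT was -0.75 (SE 0.51, 95% interval -1.84 to 0.34, limma adjusted p = 0.336) and KD minus NO was -0.79 (SE 0.51, 95% interval -1.88 to 0.30, limma adjusted p = 0.37). The remaining 3 of this role, the synaptobrevins Vamp1 and Vamp2 and beta-SNAP (Napb), were called in no comparison, and their KD minus NT differences ran from -0.15 to 0.02.

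**Figure D3:**
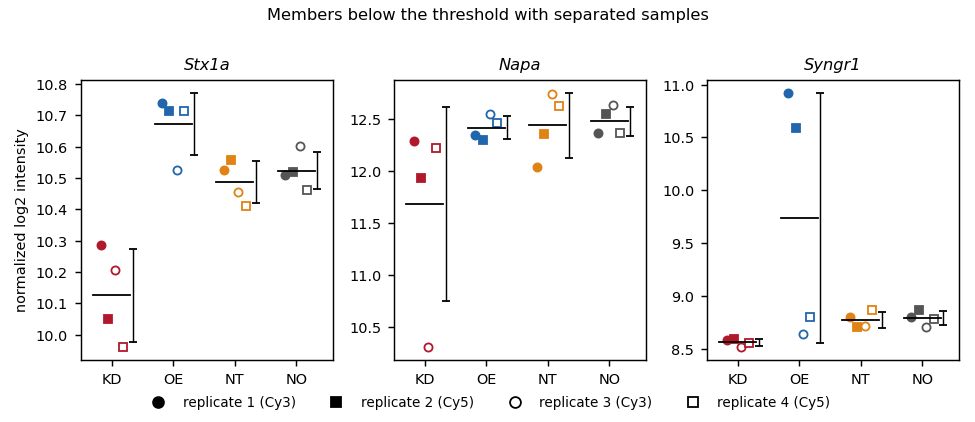
Normalized log2 intensity (vertical axis) of Stx1a, Napa and Syngr1 in KD, OE, NT and NO cultures (horizontal axis), with symbols for dye and replicate, means as lines and SDs as bars. The KD samples of Stx1a lie below all others, KD replicate 3 sets Napa's spread, and OE replicates 1 and 2 stand above the other samples for Syngr1.

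In the priming and active zone group, 1 of 10 members was called between KD and NT cultures, Pclo. Pclo encodes piccolo, a giant scaffold of the active zone. Its levels were 8.90, 8.69, 8.62 and 9.04 in KD cultures, 8.83, 8.67, 8.76 and 8.29 in OE cultures, 8.43, 8.20, 7.15 and 7.54 in NT cultures and 8.86, 8.69, 8.55 and 8.94 in NO cultures. All 4 KD samples lay above all 4 NT samples, and NT replicates 3 and 4, which share an array, were the lowest of the 16. The Pclo probe was well above background in 15 of the 16 samples, with 3 of 4 in NT cultures. Pclo rose 1.98-fold in KD against NT cultures, a log2 difference of 0.99 (SE 0.30, 95% interval 0.35 to 1.63, limma adjusted p = 0.0282). The call was lost without KD replicate 4 (difference 0.88, adjusted p = 0.0531), with 1 value per array and with only KD and NT in the fit. With the processed signals the difference was 1.94 (adjusted p = 0.0621), also short of the threshold. KD minus NO was 0.05 (limma adjusted p = 0.943). NT minus NO was -0.93 (SE 0.30, 95% interval -1.57 to -0.29, limma adjusted p = 0.0364), and that call was lost without NO replicate 1, NO replicate 4, NT replicate 2 or NT replicate 4, with adjusted p of 0.0631, 0.0713, 0.0588 and 0.0513.

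Rims2 encodes RIM2, which links vesicle-bound Rab3 to the active zone and primes vesicles. Its levels were 10.01, 9.89, 9.84 and 9.77 in KD cultures, 9.23, 9.20, 9.30 and 9.28 in OE cultures, 9.58, 9.63, 9.59 and 9.71 in NT cultures and 9.27, 9.20, 8.85 and 9.01 in NO cultures. The 4 KD samples lay above the 4 NT samples, which lay above all OE and NO samples. Rims2 was 1.73-fold higher in KD than in NO cultures, a log2 difference of 0.79 (SE 0.12, 95% interval 0.55 to 1.04, limma adjusted p = 0.000653), and this call was kept under all 28 alternatives. It was also higher in NT than in NO cultures, 0.54 (SE 0.12, 95% interval 0.30 to 0.79, limma adjusted p = 0.00378). Within the slides it did not pass, with KD minus NT at 0.25 (limma adjusted p = 0.15) and OE minus NO at 0.17 (limma adjusted p = 1.00). OE minus NT was -0.38 (SE 0.12, 95% interval -0.63 to -0.13, limma adjusted p = 0.0293), and this call was lost without NT replicate 2, NT replicate 4, OE replicate 2 or OE replicate 4, with adjusted p of 0.0537, 0.0626, 0.0512 and 0.0511.

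Bsn encodes bassoon, the scaffold that works beside piccolo. Its levels were 9.96, 9.86, 9.86 and 9.98 in KD cultures, 9.48, 9.54, 9.50 and 9.47 in OE cultures, 9.87, 9.93, 9.74 and 9.97 in NT cultures and 9.04, 9.28, 9.36 and 9.60 in NO cultures. All 8 samples of the KD and NT slide lay above all 8 of the OE and NO slide. Bsn was 1.51-fold higher in KD than in NO cultures, 0.59 (SE 0.13, 95% interval 0.32 to 0.86, limma adjusted p = 0.00812), and NT minus NO was 0.56 (limma adjusted p = 0.00569). With no normalization between arrays the adjusted p was 0.0562 for KD minus NO and 0.732 for NT minus NO, and with the deposited value table it was 0.0787 for NT minus NO. Within the slides, KD minus NT was 0.04 (limma adjusted p = 0.885) and OE minus NO was 0.18 (limma adjusted p = 1.00). OE minus NT was -0.38 (limma adjusted p = 0.0442), and it was lost without any of 10 samples left out singly (NO replicates 2 and 3, NT replicates 1, 2 and 4, KD replicates 3 and 4, OE replicates 1, 2 and 4), with adjusted p between 0.0534 and 0.0891.

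The other 7 members of this role were called in no comparison. They are Rims1, the priming factors Unc13a, Unc13b and Unc13c, the scaffolds Erc1 and Erc2 and the liprin Ppfia3. Their KD minus NT differences ran from -0.13 to 0.16, KD minus NO from -0.32 to 0.33, OE minus NT from -0.43 to 0.13, OE minus NO from -0.26 to 0.09 and NT minus NO from -0.27 to 0.26. NT replicates 1 and 2 had no value for the tested Ppfia3 probe, whose spots were outlying there, so its fit used the remaining 14 samples.

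The C2-domain proteins bind membranes in a calcium-dependent way, and 0 of 3 were called in KD against NT in limma, with 0 at an unadjusted p under 0.05. Doc2a encodes a calcium sensor of spontaneous and asynchronous release. Its levels were 10.21, 10.12, 10.06 and 9.67 in KD cultures, 9.77, 9.67, 9.51 and 9.55 in OE cultures, 9.98, 9.98, 10.47 and 10.15 in NT cultures and 9.58, 9.53, 9.69 and 9.40 in NO cultures. The 4 NT samples lay above all OE and NO samples, and KD samples overlapped with each of the other groups. Doc2a was lower in OE than in NT cultures, -0.52 (SE 0.16, 95% interval -0.85 to -0.19, limma adjusted p = 0.0252), and 1.51-fold higher in NT than in NO cultures, 0.60 (SE 0.16, 95% interval 0.26 to 0.93, limma adjusted p = 0.0128). Within the slides, KD minus NT was -0.13 (limma adjusted p = 0.614) and OE minus NO was 0.07 (limma adjusted p = 1.00). Rph3a encodes rabphilin, a Rab3 effector on vesicles, and averaged 7.45 ± 0.11 in KD, 7.32 ± 0.10 in OE, 7.23 ± 0.05 in NT and 7.56 ± 0.13 in NO cultures (SD, n = 4 each). It was lower in NT than in NO cultures, -0.33 (SE 0.11, 95% interval -0.56 to -0.10, limma adjusted p = 0.0388). That call was lost without NO replicate 1, NO replicate 3, NT replicate 1, NT replicate 4 or OE replicate 4, with adjusted p between 0.0511 and 0.0804. The Rph3a probe was well above background in 11 of 16 samples, 2 of 4 in NT and 3 of 4 in NO cultures. Its levels are thus near background. Doc2b was called in no comparison, with KD minus NT at 0.07 (limma adjusted p = 0.774).

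Of the 4 endocytosis genes, 2 were called between KD and NT cultures. Amph encodes amphiphysin, which senses membrane curvature and recruits dynamin to the bud. Its levels were 10.48, 10.35, 10.51 and 10.15 in KD cultures, 10.13 and 10.00 in the 2 OE cultures with a value, 10.90, 11.12, 11.30 and 11.13 in NT cultures and 10.57, 10.27, 10.10 and 9.98 in NO cultures. OE replicates 3 and 4 had spots marked as outlying and were left out of its fit. OE replicates 1 and 2 share an array, so the OE level of Amph rests on a single array. All 4 NT samples lay above every sample of the other groups. Amph fell by 0.74 in KD against NT cultures (SE 0.17, 95% interval -1.11 to -0.38, limma adjusted p = 0.00665), 1.67-fold lower. The call was lost with no normalization between arrays (adjusted p = 0.32) and with the deposited value table (adjusted p = 0.0812). Amph was 2.07-fold lower in OE than in NT cultures, -1.05 (SE 0.20, 95% interval -1.49 to -0.61, limma adjusted p = 0.00267), and NT minus NO was 0.89 (limma adjusted p = 0.00231). With no normalization between arrays these were -0.74 (adjusted p = 0.184) and 0.48 (adjusted p = 0.34), both short of the threshold. KD minus NO was 0.14 (limma adjusted p = 0.65) and OE minus NO -0.16 (limma adjusted p = 1.00).

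Synj1 encodes synaptojanin 1, the phosphoinositide phosphatase that lets the clathrin coat come off. On its brighter probe the levels were 13.17, 13.26, 12.97 and 13.24 in KD cultures, 13.43, 13.46, 13.28 and 13.26 in OE cultures, 12.60, 12.73, 12.12 and 12.49 in NT cultures and 13.34, 13.39, 13.25 and 13.47 in NO cultures. All 4 NT samples lay below the 12 others. Synj1 rose 1.6-fold in KD against NT cultures, a log2 difference of 0.67 (SE 0.14, 95% interval 0.38 to 0.97, limma adjusted p = 0.00253). It was 1.83-fold higher in OE than in NT cultures, 0.87 (SE 0.14, 95% interval 0.58 to 1.17, limma adjusted p = 0.000405), and NT minus NO was -0.88 (limma adjusted p = 0.000375). These 3 calls, which share the NT samples, were kept under all 28 alternatives, while KD minus NO was -0.20 (limma adjusted p = 0.393) and OE minus NO 0.00 (limma adjusted p = 1.00). Synj1 was also the member called in the difference of the same-slide comparisons, 0.68 (SE 0.19, 95% interval 0.26 to 1.09, limma adjusted p = 0.0385). That call was lost under 13 alternatives, among them leaving out any of NO replicates 1, 3 and 4, NT replicate 2, KD replicates 1, 2 and 4 or OE replicates 2 and 4, with adjusted p between 0.0531 and 0.0697. The other 2 endocytosis genes, dynamin 1 (Dnm1) and endophilin A1 (Sh3gl2), were called in no comparison, with KD minus NT at 0.11 (limma adjusted p = 0.741) and 0.27 (limma adjusted p = 0.507).

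**Figure D4:**
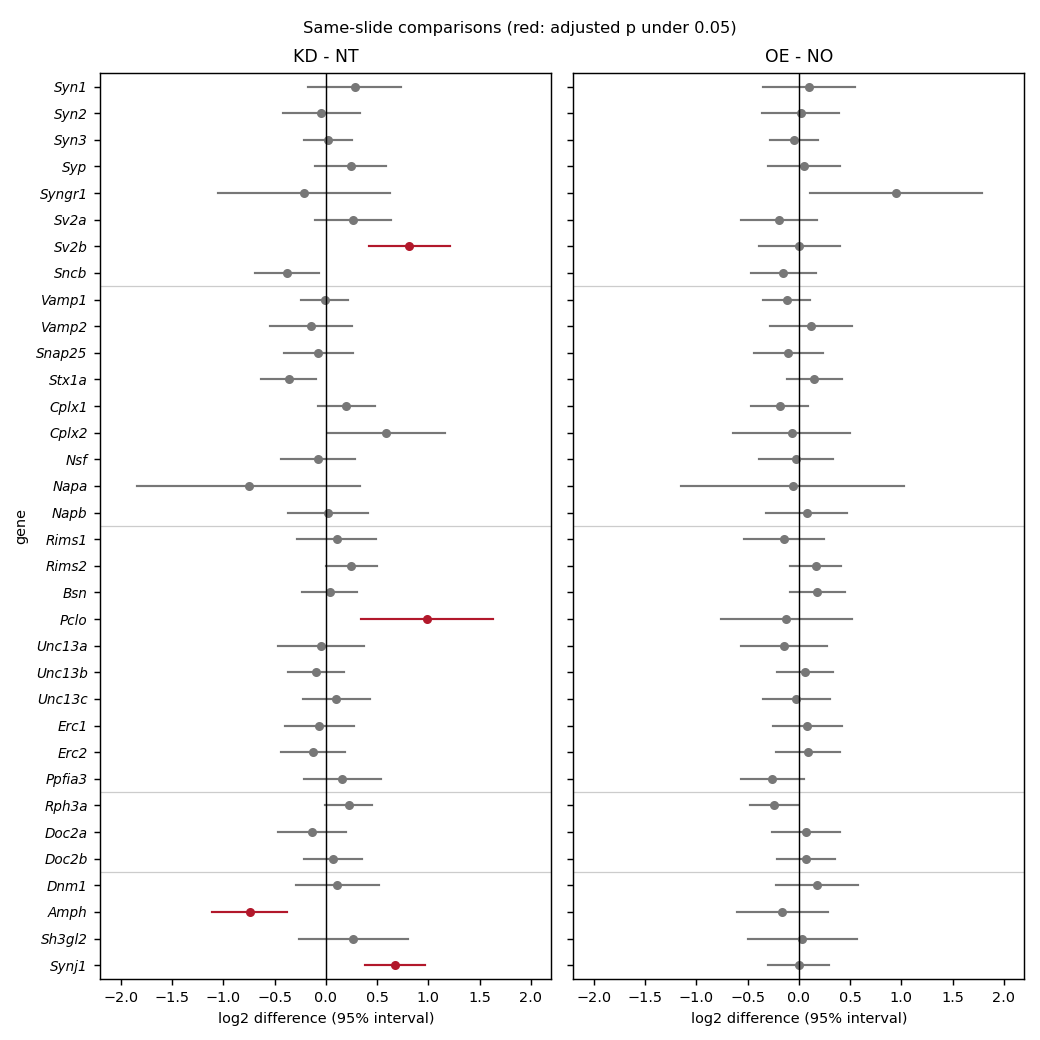
Log2 differences (horizontal axis) of the 34 tested members (vertical axis) in the same-slide comparisons, KD−NT and OE−NO, with 95% intervals; red marks an adjusted p under 0.05 in limma. Sv2b, Pclo, Synj1 and Amph are red in KD−NT, none is red in OE−NO, and the widest OE−NO intervals are those of Napa and Syngr1.

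The second Synj1 probe, whose sequence is printed above, gave 9.56, 9.37, 9.47 and 9.32 in KD cultures, 10.15, 9.80, 10.20 and 10.10 in OE cultures, 8.85, 9.09, 8.82 and 8.82 in NT cultures and 10.10, 10.03, 9.93 and 9.75 in NO cultures. On this probe, too, all NT samples lay below the other 12, but the KD samples also lay below all OE and NO samples. KD minus NT was 0.54 (limma adjusted p = 0.0153), OE minus NT 1.17 (limma adjusted p = 6.05e-05) and NT minus NO -1.06 (limma adjusted p = 0.000129). KD minus NO was -0.52 (limma adjusted p = 0.0341) on this probe, past the threshold, and -0.20 (limma adjusted p = 0.393) on the brighter one. The probes of Synj1 thus gave the same direction and call for KD against NT and different calls for KD against NO. For Snap25, the OE minus NT difference was -0.50 (limma adjusted p = 0.0315) on the brighter probe and -0.44 (limma adjusted p = 0.202) on the other. Adjusted p-values of the brighter probes are from the fit of the 22961 tested genes. Those of the other probes are from a fit of all 27288 probes past the filter. The other probes of Vamp2 and Ppfia3 that could be fitted were called in no comparison.

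**Figure D5:**
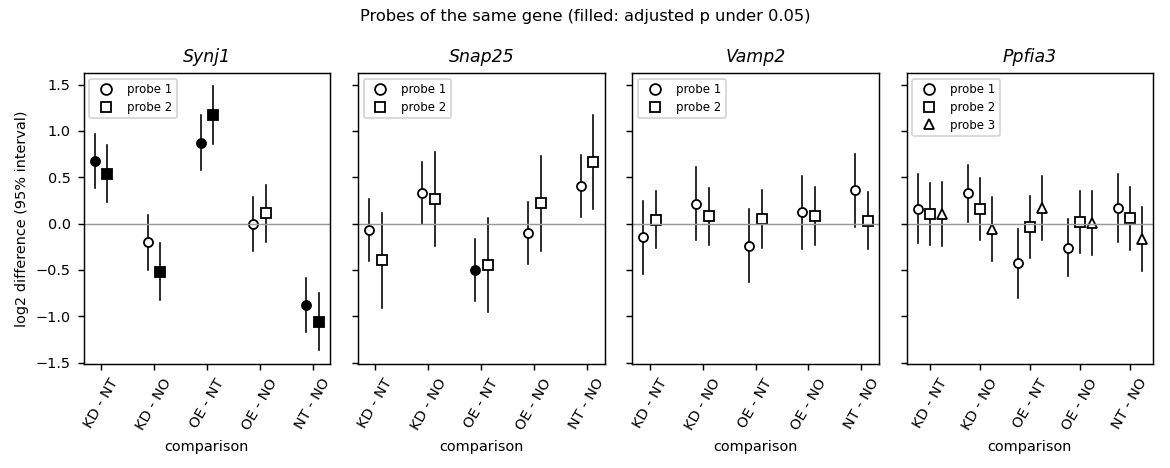
Log2 differences (vertical axis) on each fitted probe of Synj1, Snap25, Vamp2 and Ppfia3 in the comparisons between groups (horizontal axis), with 95% intervals. Probe 1 is the tested probe, and filled symbols mark an adjusted p under 0.05; the Synj1 probes are both filled for KD−NT, and only the second is filled for KD−NO.

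Of the 9 members with full values, Syn1, Nsf, Rims2 and Bsn had all samples of one slide above or below all of the other. The calls of these 4 came from comparisons across slides, and none of the 4 was called within a slide. The 9 were chosen by their calls, so separation by slide is partly set by that choice. The share of all genes separated in this way was not counted. Sv2b differed in the KD samples, and Amph and Synj1 in the NT samples, from every other sample. Marker lists of cell types also differed between groups. Mean log2 levels of the inhibitory interneuron markers (10 of 11 tested) were 9.98 to 10.12 in KD, 10.47 to 10.69 in OE, 9.52 to 9.78 in NT and 10.48 to 10.89 in NO cultures. Those of dividing cells (5 of 6 tested) were 9.10 to 9.58 in KD, 8.72 to 9.23 in OE, 7.95 to 8.27 in NT and 8.55 to 9.24 in NO cultures. Astrocyte markers gave 11.88 to 12.03 in KD, 12.13 to 12.48 in OE, 11.26 to 11.82 in NT and 11.58 to 12.32 in NO cultures. Neuron markers (10 of 11 tested), each well above background in 13 to 16 samples, gave 14.28 to 14.47 in KD, 14.33 to 14.43 in OE, 13.95 to 14.39 in NT and 14.32 to 14.58 in NO cultures. Between KD and NT cultures 6 interneuron markers were called higher and 1 lower, 3 markers of dividing cells higher, 3 of 9 astrocyte markers higher and 1 lower, and 2 neuron markers higher and 1 lower. For comparison, 10.4% of all genes were called higher and 11% lower between these groups. Of the oligodendrocyte lineage markers 3 of 9 were called higher and 0 lower in KD against NT, with mean levels of 8.89 to 8.95 in KD, 8.26 to 8.97 in OE, 8.48 to 8.57 in NT and 8.92 to 9.08 in NO cultures. Of the excitatory neuron markers 1 of 8 was called higher, and of the microglial and the fibroblast and vascular markers 0 of 6 and 0 of 8 were called, with 0 and 1 at an unadjusted p under 0.05. Among microglial markers, Aif1, Itgam and Cx3cr1 did not pass the filter on dim probes. The part of these marker levels in the members' differences was not tested.

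Of 57 other genes of the presynapse that are not members, 50 were tested. Between KD and NT cultures 7 were higher and 7 lower, with a median difference of 0.01. The counts were 5 higher and 2 lower in KD against NO, 6 higher and 7 lower in OE against NT, and 8 higher and 7 lower in NT against NO. The shares called were 28%, 14%, 26% and 30% in this order, beside 21.5%, 10.1%, 22.8% and 22.5% of all genes. In OE against NO limma called 0 of the 50, beside 0.00436% of all genes, and 4 had an unadjusted p under 0.05. Synpr, a relative of synaptophysin, rose by 1.49 (limma adjusted p = 0.000189) in KD against NT, with mean levels of 10.28 in KD, 10.21 in OE, 8.79 in NT and 9.99 in NO cultures. Slc32a1, the vesicular GABA transporter and one of the interneuron markers, rose by 1.10 (limma adjusted p = 0.00154), with mean levels of 10.34 in KD, 10.83 in OE, 9.24 in NT and 11.28 in NO cultures. The synaptobrevin relative Vamp3 differed by -0.92 (limma adjusted p = 0.000487) and Cadps2, a priming factor of dense core vesicles, by -0.79 (limma adjusted p = 0.00278).

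The study asks about c-Jun, a subunit of AP-1 that can also bind cyclic AMP response elements when paired with ATF proteins, so the members' promoters were searched for both motifs. RefSeq promoters (GRCr8, 250 bases before to 50 after the start) were at hand for 29 of 35 members; those of Doc2a, Doc2b, Rims2, Snap25, Syn3 and Syngr1 were not used here. TGACGTCA, which reads the same on both strands, was found in 4 of 29, against 1.83% of 33469 promoters. TGANTCA, searched on both strands and not contained in the first motif, was found in 2 of 29 (Erc2 and Syp), against 7.33%. Members were counted as genes with a match in any of their promoters, and the percentages are over single promoters. The counts and percentages are therefore not the same measure where a gene has several promoters. The windows with TGACGTCA are shown on the plus strand, with the motif in capitals, since this is the rarer of the motifs. They are at chr1:85915350-85915409 for Napa, chr4:159698797-159698856 for Vamp1, chr5:104699178-104699237 for Sh3gl2 and chrX:3725529-3725588 for Syn1, and the motif begins 59, 71, 66 and 190 bases before the start.
Napa: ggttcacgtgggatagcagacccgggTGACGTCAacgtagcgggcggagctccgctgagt
Vamp1: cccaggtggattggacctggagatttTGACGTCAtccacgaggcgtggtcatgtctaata
Sh3gl2: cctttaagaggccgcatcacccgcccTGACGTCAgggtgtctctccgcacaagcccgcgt
Syn1: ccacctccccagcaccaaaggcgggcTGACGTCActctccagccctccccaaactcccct
None of these 4 genes was called within a slide, with KD minus NT at -0.75 (limma adjusted p = 0.336) for Napa, -0.01 (limma adjusted p = 0.966) for Vamp1, 0.27 (limma adjusted p = 0.507) for Sh3gl2 and 0.28 (limma adjusted p = 0.395) for Syn1. A match describes the letters in these windows and is no evidence of binding.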

How the data were processed

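RNA of 16 rat hippocampal neuron cultures was measured on 8 two-colour Agilent arrays, and groups were taken from sample titles and source labels. A further label, which names adult dentate gyrus of hormone-treated animals, contradicts the culture protocol and was not used. Per the file headers, Agilent Feature Extraction 10.7.3.1 gave the intensity of each spot (mean) and of its surroundings (median background), not normalized, and a processed intensity with background removed and dyes balanced within the array. The authors' deposited value file holds log2 values, and a regression on the scanner files (slope and r of 1 in each sample) showed them to be median signal less background, centred on the column median. No columns of other samples were found (0).

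In limma 3.58.1 (statmod 1.5.0, the R package data.table in version 1.17.8, R 4.3.3), the steps were normexp background correction (offset 50), loess between the dyes (control spots given a weight of 0) and Aquantile between arrays. Outlying spots were set to missing and spots of a probe averaged. A probe was kept if 4 or more of the 16 samples were well above background and if it had 12 or more values, 2 or more per group (27288 of 41012 probes). Of the 41012, 20607 were named through RefSeq accessions and the rest kept the array's name. The brightest probe of each gene gave 22961 tested genes. The model of the single-channel log2 values had terms for group and dye and a random array block (correlation 0.569). It left 11 residual degrees of freedom, with 4.06 added by the prior. Tests were two-sided, and p-values were adjusted by Benjamini-Hochberg over the 22961 genes of each of 6 comparisons, at 0.05. Further probes of a member were fitted among all 27288 kept probes and adjusted over those. The fit was tested on simulated data, with no setting or outcome of that test reported here. Sequences and plots were handled in Python 3.11.15 with matplotlib 3.10.9.

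The members and lists were chosen with earlier results of these data known. Values in every sample are given for members called in a same-slide comparison, or called elsewhere with a log2 difference of at least 0.58; others are given by range, and at most 6 other presynaptic genes are named, by smallest p, of which some are not reported here. The replicate numbers are from the labels. Same-numbered samples deviated together in KD and NT (r of 0.134, 0.152, 0.257 and 0.192 for numbers 1 to 4) and in KD and NO (0.167, 0.164, 0.264 and 0.187), which counts as pairing here, although the number coincides with the dye and, after removing the dye, KD and NT gave 0.136, 0.0713, 0.146 and 0.0615. The other comparisons were not counted as paired. NT and NO gave 0.0471, 0.206, 0.271 and 0.330, and after removing the dye 0.0134, 0.0921, 0.146 and 0.206. OE and NO gave 0.244, 0.118, 0.201 and -0.185, and OE and NT 0.0805, 0.0976, 0.0153 and -0.0108. The alternatives were the processed signals, other offsets, normalizations and filters, the mean of all probes, other blocks, the deposited table and leaving out each sample.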

Additional observations from a re-analysis of the deposited data

Results flagged for a closer look

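In 3 of 134 groups of 4 values, 1 sample stood apart from the other 3 by Dixon's ratio of its gap to the group's range, past the 95% critical value for 4 samples. Chance gives such a flag in about 1 in 20 groups. Stx1a in OE replicate 3 was 10.53, against 10.71 to 10.74 in the other OE cultures (ratio 0.885), and that sample is nearest to the KD samples among the OE cultures. Erc2, an active zone scaffold called in no comparison, was 7.39 in KD replicate 4, against 7.52 to 7.54 in the other KD cultures (ratio 0.894). Erc2 was also 7.03 in NO replicate 3, against 7.45 to 7.49 in the other NO cultures (ratio 0.906). None of these values entered a call.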

How the results depend on the processing

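The count of 0 members in OE against NO held under every alternative run, beside 0% to 0.139% of all genes. For the other comparisons, the number of members called moved by over 1.5 times under the settings below. With no normalization between arrays it was 13 in KD against NT, 1 in KD against NO, 3 in OE against NT, 4 in NT against NO and 0 in the difference of the same-slide comparisons. Of all genes, 43.5%, 9.26%, 9.23%, 10% and 4.07% were then called, in the same order. With no array block the number of members was 9, 8, 15, 16 and 7 in that order. The shares of all genes were 36.2%, 25.9%, 39.9%, 39.8% and 23.1%. With 1 value per array it was 2 in OE against NT, 5 in NT against NO and 0 in the difference, beside 15.5%, 15.3% and 4.56% of all genes. With only the groups compared in the fit it was 5 in OE against NT and 6 in NT against NO, beside 17% and 14.1%. Probes well above background in all samples gave 2 of 24 members in KD against NT, beside 26.8% of the genes kept. The difference of comparisons had 0 with the processed signals, 4 with the deposited table, 2 with no filter and 0 with the mean of all probes. The shares of all genes tested were 9.26%, 14.3%, 7.29% and 9.39% under these settings. With the replicate block in place of the dye, the counts were 5 in KD against NT, 5 in KD against NO, 0 in OE against NO, 9 in OE against NT, 12 in NT against NO and 2 in the difference. Of all genes, 24.8%, 12.7%, 0.00436%, 27%, 26.5% and 12.4% were called with it, in the same order. The block lost no call, and it added Stx1a in KD against NT and KD against NO, Pclo in OE against NT (adjusted p = 0.0299), Snap25 (0.0297) and Cplx2 (0.0422) in NT against NO and Sv2b in the difference (0.0323). Leaving out each sample gave 3 to 5 in KD against NT, 4 to 6 in KD against NO, 0 to 0 in OE against NO, 5 to 9 in OE against NT, 8 to 11 in NT against NO and 0 to 2 in the difference. Over all 22961 genes the counts were then 4297 to 5041, 1685 to 2782, 0 to 2, 4357 to 5551, 4238 to 5424 and 1895 to 2479. With no normalization between arrays, the OE minus NT differences of Rims2 and Bsn turned to 0.015 and 0.013, while the median of all genes moved by 0.39. The processed signals gave -1.85 for Pclo and -0.91 for Rph3a in NT minus NO, and no normalization between arrays gave 1.05 for Nsf in OE minus NT and -1.09 in NT minus NO and -1.27 for Syn1 in NT minus NO, each over 1.5 times its value above. Over the called members named and all alternatives, 656 values kept direction and call, 91 kept direction without the call and 2 turned. The causes of these changes were not tested. Low signal leaves Sv2c, the second probes of Sv2b and Vamp1 and a further probe of Vamp2 without a usable value. Some tested probes were dim as well. Those of Syn3, Vamp1, Erc1 and Doc2b were well above background in 8, 11, 7 and 8 of 16 samples. Their levels are thus near background, and whether this made their differences small was not tested.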
